A study of Mus musculus with 6 samples.

Results

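Genes that copy the genome and supply its nucleotides were followed in RAW264.7, a macrophage-like mouse cell line derived from a virus-induced tumour. The members are 43 genes, taken by name for their roles in origin licensing, unwinding, DNA synthesis, nucleotide supply and chromatin behind the fork, and all 43 were found among the 28836 genes of the table and among the 17124 that could be tested. Poly(A) RNA was sequenced from 3 untreated libraries and 3 libraries of cells given GB2, with between 62660734 and 77337345 estimated counts each. GB2 is a prodrug that ties MSA-2, which activates the innate immune adaptor STING, to artesunate, used by the study against the myeloid receptor TREM2, by a disulfide that glutathione opens. Both groups are the same line, and the labels name no other allele, agent, dose or exposure time. In the study's account the macrophages lay in a transwell whose other chamber held tumour cells. It does not say plainly whether this held for the untreated cells too. That account also states a GB2 concentration and an exposure time, which are not reported here. Replicates are named only by number in the labels, which alone do not show how they were made. The study's account describes the replicates of this experiment as biological. The spread behind each p-value is that of these libraries.

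DNA replication begins when the origin recognition complex, with CDC6 and CDT1, loads the MCM2-7 ring onto DNA. At the start of S phase CDC45 and the GINS complex join MCM2-7 to make the active helicase. Primase and the polymerases alpha, delta and epsilon then copy the strands. The RFC clamp loader opens and closes the PCNA ring, which tethers polymerases such as delta to DNA. Ribonucleotide reductase and thymidylate synthase make the deoxynucleotides. E2F transcription factors drive many of these genes as cells enter S phase. RAW264.7 is a dividing line, unlike most tissue macrophages.

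The members moved in both directions and by small amounts. At an edgeR FDR (the Benjamini-Hochberg adjusted p over all genes tested) below 0.05, 8 of 43 members rose and 16 fell, while 26.8% of all genes tested rose and 29.6% fell, 56.4% in all. The members that fell encode mainly the MCM2-7 ring, GINS, the clamp and its loader, and those that rose include Orc1, Cdc45 and the genes of deoxynucleotide synthesis. With the study's further demand of a 2-fold change, edgeR called 0 of 43 members, against 21.2% of all genes tested, and the DESeq2 Wald test also called 0. At an unadjusted p below 0.05 edgeR had 9 of 43 members higher and 16 lower, beside 5096 higher and 5396 lower of all 17124 genes tested.

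Changes ranged from a log2 difference of -0.92 for Mcm6 to 0.84 for Tyms, GB2-treated minus untreated. The median log2 difference of the members was -0.12 beside 0.01 over all genes tested, and the median absolute log2 difference was 0.29 beside 0.55. For 39 of the 43 members the whole 95% interval lay within 2-fold in either direction, the exceptions being Orc1, Mcm6, Cdc45 and Tyms. Among the 19 members that did not pass, intervals reached no lower than -0.61, for Pole2, and no higher than 0.46, for Mcm10. FPKM (fragments scaled to transcript length and to the mapped fragments of the library) did not overlap between groups for 10 members that were higher and 18 that were lower, where 27.4% and 34.5% of all genes tested, 61.9% together, were so parted. Within limma on log2(FPKM + 1), the gap between the medians changed with the filter on low FPKM. The members had a median of -0.13 with and without it. All genes had 0.014 with no filter and -0.10 for the 11398 genes of at least 1 FPKM on average. In edgeR on counts divided by 4 the medians were -0.064 for the members and -0.006 for all 13866 genes. The cause of the gap was not tested.

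**Figure D1:**
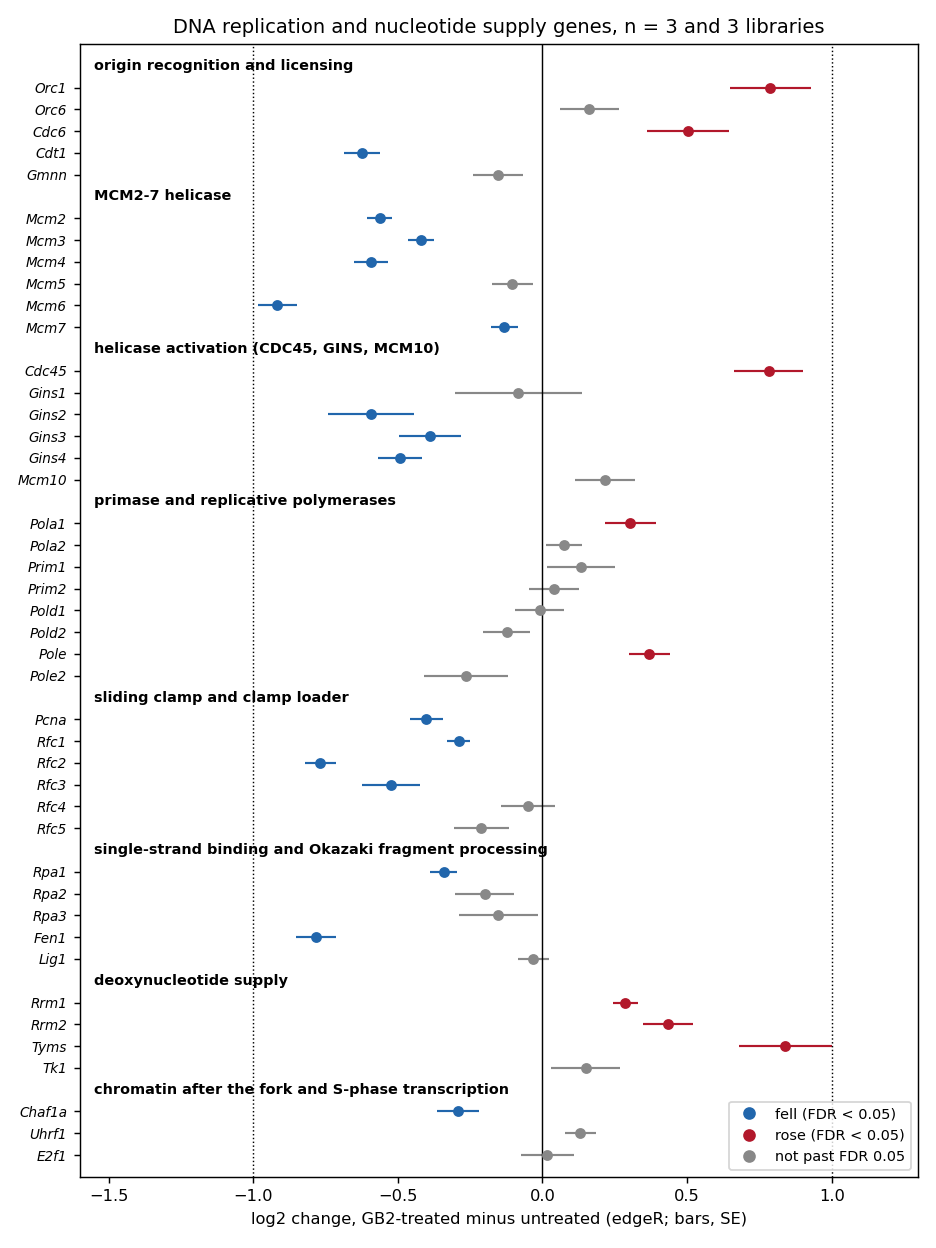
Log2 difference (GB2-treated minus untreated, edgeR) of each of the 43 members, grouped by role, with bars of 1 standard error and dotted lines at 2-fold. Blue marks the 16 that fell, red the 8 that rose and grey the 19 that did not pass, and every point lies between -0.92 and 0.84.

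**Figure D2:**
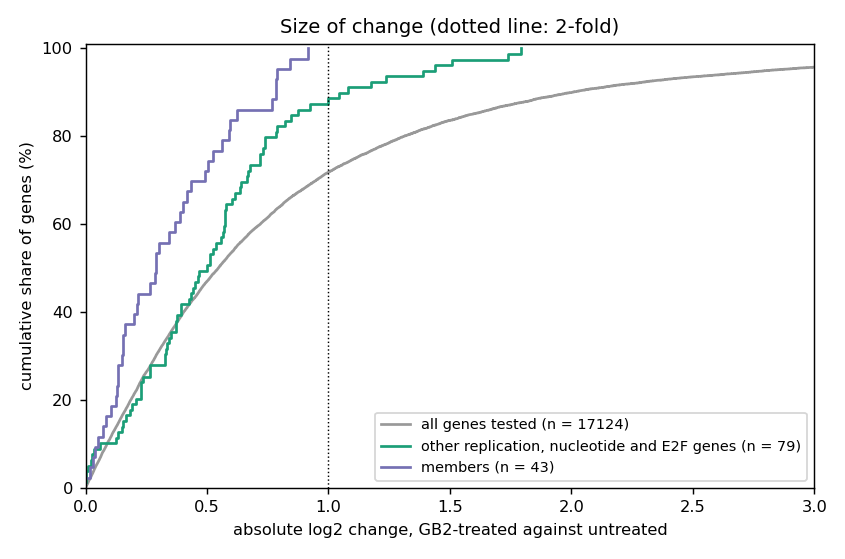
Cumulative share of genes (%) against the absolute log2 difference between groups, for the 43 members, 79 further genes of the same processes and all 17124 genes tested. All members lie inside the dotted 2-fold line, and their median of 0.29 is below the 0.55 of all genes.

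Macrophage markers were present in every library, and 2 libraries also carried transcripts of other tissues. The summed level of 8 macrophage genes was 15100 to 15600 FPKM in untreated libraries and 8447, 7288 and 7803 FPKM in GB2-treated replicates 1, 2 and 3. All 8 were above 0.5 FPKM in all 6 libraries. Lyz2 (lysozyme) made up most of that sum, at 13130 FPKM untreated and 6552 FPKM after GB2 on average, and the other genes did not all move with it. Itgam rose (log2 difference 0.38, edgeR FDR = 0.000106) and Ptprc did not pass (0.06, FDR = 0.401), while the remaining 6 fell. The 7 hepatocyte genes summed to at most 0.67 FPKM untreated, and to 3.75, 523.7 and 505.2 FPKM in GB2-treated replicates 1, 2 and 3. Muscle genes summed to 0.02, 138.4 and 189.7 FPKM, and epithelial genes to 0.92, 59.82 and 62.86 FPKM, in the same order. Their untreated sums were at most 0.19 and 1.43 FPKM. The part of this foreign RNA in the values of the members was not tested. Without GB2-treated replicates 2 and 3, only GB2-treated replicate 1 was left in its group. The median log2 difference was then 0.03 for the members and -0.006 over all genes in that fit. Of the 24 members called in all libraries, 23 kept their sign, the exception being Mcm7. Replicate 1 and the untreated libraries are part of both comparisons, so kept signs do not show what the foreign RNA added. In bulk RNA, fewer cells in S phase and less RNA per cell cannot be told apart.

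Promoter sequences are shown for a pair of MCM genes that parted and for a pair of licensing genes that rose. They come from RefSeq on GRCm38.p6 and run from 250 bases before to 50 after the RefSeq start, on the strand of the gene. This start can differ from the gene bounds used for the counts. Those bounds begin at 98907801 for Cdc6, so its whole window lies after that start. For Mcm5 they begin at 75109569, so its whole window lies before that start. Capitals mark letters of the E2F motif, searched as TTTCCCGC, TTTGGCGC, TTTCGCGC or TTTGCCGC on both strands, with overlapping matches counted. Mcm6 fell most of all members (chr1:128359656-128359955, minus strand, 3 matches), while Mcm5 did not pass (chr8:75109259-75109558, plus strand, 2 matches). Orc1 (chr4:108579204-108579503, plus strand) and Cdc6 (chr11:98907901-98908200, plus strand) rose and have 1 match each.
Mcm6: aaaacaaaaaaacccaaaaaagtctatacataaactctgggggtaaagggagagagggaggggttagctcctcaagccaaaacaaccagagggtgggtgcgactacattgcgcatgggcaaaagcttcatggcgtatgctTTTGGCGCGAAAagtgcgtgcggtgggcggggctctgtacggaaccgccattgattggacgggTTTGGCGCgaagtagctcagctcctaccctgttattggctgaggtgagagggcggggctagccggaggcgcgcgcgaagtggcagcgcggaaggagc
Mcm5: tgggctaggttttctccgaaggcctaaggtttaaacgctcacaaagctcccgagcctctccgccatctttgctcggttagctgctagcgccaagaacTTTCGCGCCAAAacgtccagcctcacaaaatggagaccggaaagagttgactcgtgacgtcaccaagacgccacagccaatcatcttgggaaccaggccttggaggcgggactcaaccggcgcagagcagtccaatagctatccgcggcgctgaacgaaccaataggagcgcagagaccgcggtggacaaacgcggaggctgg
Orc1: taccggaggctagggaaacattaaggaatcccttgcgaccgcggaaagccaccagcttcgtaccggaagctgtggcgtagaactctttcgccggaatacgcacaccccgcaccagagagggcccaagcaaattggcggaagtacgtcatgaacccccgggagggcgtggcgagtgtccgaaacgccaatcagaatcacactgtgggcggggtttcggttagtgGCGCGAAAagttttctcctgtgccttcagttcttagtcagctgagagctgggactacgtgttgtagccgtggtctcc
Cdc6: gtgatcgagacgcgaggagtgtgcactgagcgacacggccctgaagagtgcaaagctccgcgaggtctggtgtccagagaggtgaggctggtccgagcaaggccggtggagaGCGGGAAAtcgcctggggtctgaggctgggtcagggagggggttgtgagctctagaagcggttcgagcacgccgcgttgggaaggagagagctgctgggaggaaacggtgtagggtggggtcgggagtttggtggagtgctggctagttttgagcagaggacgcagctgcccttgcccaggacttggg

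RefSeq windows were matched by symbol for 35 of the 43 members, with 41 windows among them. Gmnn, Mcm4, Gins1, Gins2, Gins4, Prim2, Pole and Rfc2 had no window. E2F letters stood in 34.1% of member windows, in 2.26% of all 32851 windows and in 3.64% of the windows of genes tested. By gene, 6 of 12 members that fell, 3 of 7 that rose and 5 of 16 that did not pass held them, so the letters occurred in promoters of all 3 kinds. CCAAT, searched on both strands, was in 61.0% of member windows and 37.4% of all windows, and was present in 10 of 12 members that fell, 5 of 7 that rose and 8 of 16 that did not pass. The cell-cycle homology letters TTTGAA or TTCGAA, on both strands, were in 17.1% of member windows, in 19.2% of all windows and in 14.5% of the windows of genes tested. By gene, 5 of 12 members that fell, 1 of 7 that rose and 1 of 16 that did not pass held them. A match describes the sequence and is not evidence of binding.

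Among the 5 genes of origin recognition and licensing, 2 rose, 1 fell and 2 did not pass. For all genes tested, 26.8% rose and 29.6% fell. The genes for the loading factors ORC1 and CDC6 were higher in GB2-treated cells, and the gene for CDT1, the partner that brings the MCM ring, was lower. Orc1 (ENSMUSG00000028587, chromosome 4, 108579423 to 108595580, plus strand), which encodes the largest subunit of the origin recognition complex, was at 1.11, 1.16 and 1.29 FPKM in untreated replicates 1, 2 and 3. It was at 2.25, 1.86 and 1.98 FPKM in GB2-treated replicates 1, 2 and 3. All treated libraries lay above all untreated ones, a 1.73-fold rise (log2 difference 0.79 ± 0.14 SE, edgeR FDR = 0.00228). Cdc6 went from 0.923 ± 0.0929 to 1.29 ± 0.102 FPKM (SD, n = 3 each; log2 difference 0.50, edgeR FDR = 0.0183). Its call was lost in 6 of 15 alternative analyses, among them without untreated replicate 1 or 2 (edgeR FDR = 0.0653 and 0.0794).

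Cdt1 had the highest level of the licensing genes and fell 1.54-fold. Its mean was 21.2 ± 1.51 FPKM untreated and 13.6 ± 0.456 FPKM after GB2 (SD, n = 3 each; log2 difference -0.62, edgeR FDR = 0.000105). Gmnn encodes geminin, the inhibitor that binds CDT1 and keeps origins from being licensed again. It was at 10.52, 10.47 and 11.71 FPKM untreated and 9.69, 8.81 and 10.53 FPKM after GB2. The groups overlapped and the log2 difference of -0.15 did not pass (95% interval -0.36 to 0.05). The ratio of Cdt1 to Gmnn FPKM was 1.95 ± 0.254 untreated and 1.41 ± 0.103 after GB2 (SD, n = 3 each). Orc6, the smallest ORC subunit gene, had a log2 difference of 0.16 and did not pass (edgeR FDR = 0.215).

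All 6 genes of the MCM2-7 ring were lower in GB2-treated cells, and 5 of the 6 fell past the threshold. Of all genes tested, 29.6% did so. The ring is the motor of the replicative helicase and holds 1 copy of each subunit. The 6 genes did not move by the same amount, from a log2 difference of -0.10 for Mcm5 to -0.92 for Mcm6. Their summed level went from 71.0 ± 1.86 to 52.4 ± 2.29 FPKM (SD, n = 3 each).

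Mcm6 (ENSMUSG00000026355, chromosome 1, 128331590 to 128359664, minus strand) was at 11.43, 11.71 and 10.71 FPKM in untreated replicates 1, 2 and 3 and at 5.55, 5.60 and 6.57 FPKM in GB2-treated replicates 1, 2 and 3. The lowest untreated library stood well above the highest treated one, and the fall was 1.89-fold (log2 difference -0.92 ± 0.07 SE, edgeR FDR = 2.01e-05). Mcm4, whose product sits next to MCM6 in the ring, was at 10.37, 9.69 and 9.90 FPKM untreated and 6.36, 6.15 and 7.14 FPKM after GB2 (log2 difference -0.59 ± 0.06 SE, edgeR FDR = 0.000108). Mcm2 was at 9.21, 9.08 and 9.0 FPKM untreated and 6.36, 5.79 and 6.09 FPKM after GB2 (log2 difference -0.56 ± 0.04 SE, edgeR FDR = 2.89e-05). In all 3 of these genes the groups were apart and each treated library was close to the others.

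Mcm3 had the highest level of the ring genes, at 18.72, 18.43 and 17.64 FPKM untreated and 13.36, 12.85 and 14.31 FPKM after GB2 (log2 difference -0.42 ± 0.05 SE, edgeR FDR = 0.000145). Mcm7 was at 10.42, 10.84 and 10.65 FPKM untreated and 10.06, 9.17 and 9.53 FPKM after GB2. The groups of Mcm7 did not overlap, but the difference was small (log2 -0.13 ± 0.05 SE, edgeR FDR = 0.0454). That call was kept in only 4 of 15 alternatives. It was lost, among others, without untreated replicate 1, 2 or 3 (edgeR FDR = 0.066, 0.103 and 0.0667), without GB2-treated replicate 2 or 3 (0.371 and 0.366) and with DESeq2 size factors (0.215). Mcm5 was at 12.86, 10.99 and 11.42 FPKM untreated and 11.39, 10.33 and 10.70 FPKM after GB2. The groups of Mcm5 overlapped and the log2 difference of -0.10 did not pass (95% interval -0.27 to 0.06, edgeR FDR = 0.241).

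The balance between ring genes was chosen for description after the values were seen and has no test. Mcm6 was at 0.889, 1.07 and 0.938 times the FPKM of Mcm5 in the untreated libraries and at 0.487, 0.542 and 0.614 times after GB2. The ratio of Mcm4 to Mcm7 went from 0.940 ± 0.0514 to 0.684 ± 0.0596, and that of Mcm2 to Mcm5 from 0.777 ± 0.0559 to 0.563 ± 0.00571 (SD, n = 3 each). With Mcm3 left aside, the highest of the ring genes stood 1.32 ± 0.0684 times above the lowest in untreated cells and 1.88 ± 0.152 times after GB2. With Mcm3 counted these spreads were 2.01 ± 0.0411 and 2.35 ± 0.0563, so levels within the ring were less even after GB2 either way.

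**Figure D3:**
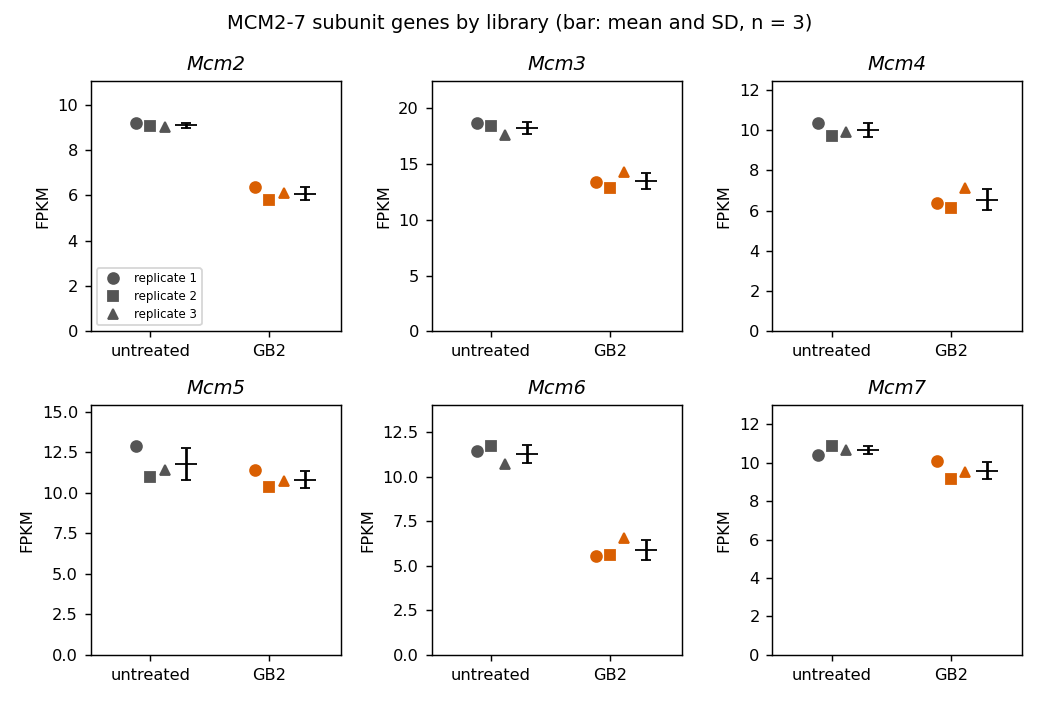
FPKM of the 6 MCM2-7 genes in each untreated (grey) and GB2-treated (orange) library, with mean and SD beside the points and axes from 0. Groups are apart for Mcm2, Mcm3, Mcm4, Mcm6 and narrowly for Mcm7, and overlap for Mcm5.

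The genes that turn the loaded ring into a working helicase split, with Cdc45 higher and 3 of the 4 GINS genes lower. Over all genes tested, 26.8% rose and 29.6% fell. Cdc45 (ENSMUSG00000000028, chromosome 16, 18780447 to 18811972, minus strand) encodes the factor that, together with GINS, joins MCM2-7 to make the active helicase. It was at 3.12, 2.61 and 2.77 FPKM untreated and at 5.27, 4.08 and 5.12 FPKM in GB2-treated replicates 1, 2 and 3. Every treated library was above every untreated one, a 1.72-fold rise (log2 difference 0.78 ± 0.12 SE, edgeR FDR = 0.00106). Gins4, the most abundant GINS gene, fell from 13.6 ± 0.462 to 9.52 ± 0.333 FPKM (SD, n = 3 each; log2 difference -0.49, edgeR FDR = 0.00108). The ratio of Cdc45 to Gins4 FPKM was 0.209 ± 0.0236 untreated and 0.507 ± 0.0707 after GB2, a description chosen after the values were seen.

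Gins2 and Gins3 fell by 0.59 and 0.39 on the log2 scale (edgeR FDR = 0.0113 and 0.0174). The call of Gins2 was lost without untreated replicate 2 (edgeR FDR = 0.0535) and that of Gins3 without untreated replicate 1 (0.059) or GB2-treated replicate 2 or 3 (0.069 and 0.0529). Without GB2-treated replicates 2 and 3 together neither passed (0.0871 and 0.139). Gins2 shares 67.3% of its exonic bases with the opposite-strand gene Gse1. How strand was used in counting is not given, so reads of such partners may not have been separated. Gins1 varied more between libraries, at 1.48, 2.15 and 1.65 FPKM untreated and 1.82, 1.44 and 1.65 FPKM after GB2, and the groups overlapped (log2 difference -0.08, 95% interval -0.59 to 0.43). Mcm10, whose product helps CDC45-MCM-GINS to start unwinding, was near 1 FPKM in both groups and did not pass (log2 difference 0.22, edgeR FDR = 0.116).

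Of the 8 primase and replicative polymerase genes 2 rose, 0 fell and 6 did not pass, where 26.8% of all genes tested rose and 29.6% fell. The risers encode the catalytic subunits of polymerase alpha, which starts each new strand, and of polymerase epsilon, which extends the leading strand. Pole was at 1.19, 1.17 and 1.22 FPKM untreated and 1.5, 1.55 and 1.52 FPKM after GB2. The libraries of each group lay close together and the groups were apart (log2 difference 0.37 ± 0.07 SE, edgeR FDR = 0.00328). Pola1 went from 1.92 ± 0.168 to 2.34 ± 0.111 FPKM (SD, n = 3 each; log2 difference 0.30, edgeR FDR = 0.0196). Its call was lost in 4 of 15 alternatives, among them without untreated replicate 1 or 2 (edgeR FDR = 0.0924 and 0.0979) or GB2-treated replicate 1 (0.0525).

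The partner subunits of these enzymes gave no call. Pola2 (0.07), Prim1 (0.13) and Prim2 (0.04), the other genes of the polymerase alpha-primase complex, had log2 differences between 0.04 and 0.13. Prim1 was higher in GB2-treated replicate 1 than in the other two treated libraries (2.71, 2.28 and 2.21 FPKM), and without replicates 2 and 3 it passed (log2 difference 0.37, edgeR FDR = 0.0366). Pold1, the catalytic subunit gene of the lagging-strand polymerase delta, was at 6.69, 6.06 and 5.46 FPKM untreated and 6.23, 5.52 and 6.11 FPKM after GB2. The treated values of Pold1 lay inside the untreated range, with a log2 difference of -0.01 (95% interval -0.21 to 0.19). Pold2 and Pole2, accessory subunit genes of delta and epsilon, had log2 differences of -0.12 and -0.27 (edgeR FDR = 0.234 and 0.161).

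**Figure D4:**
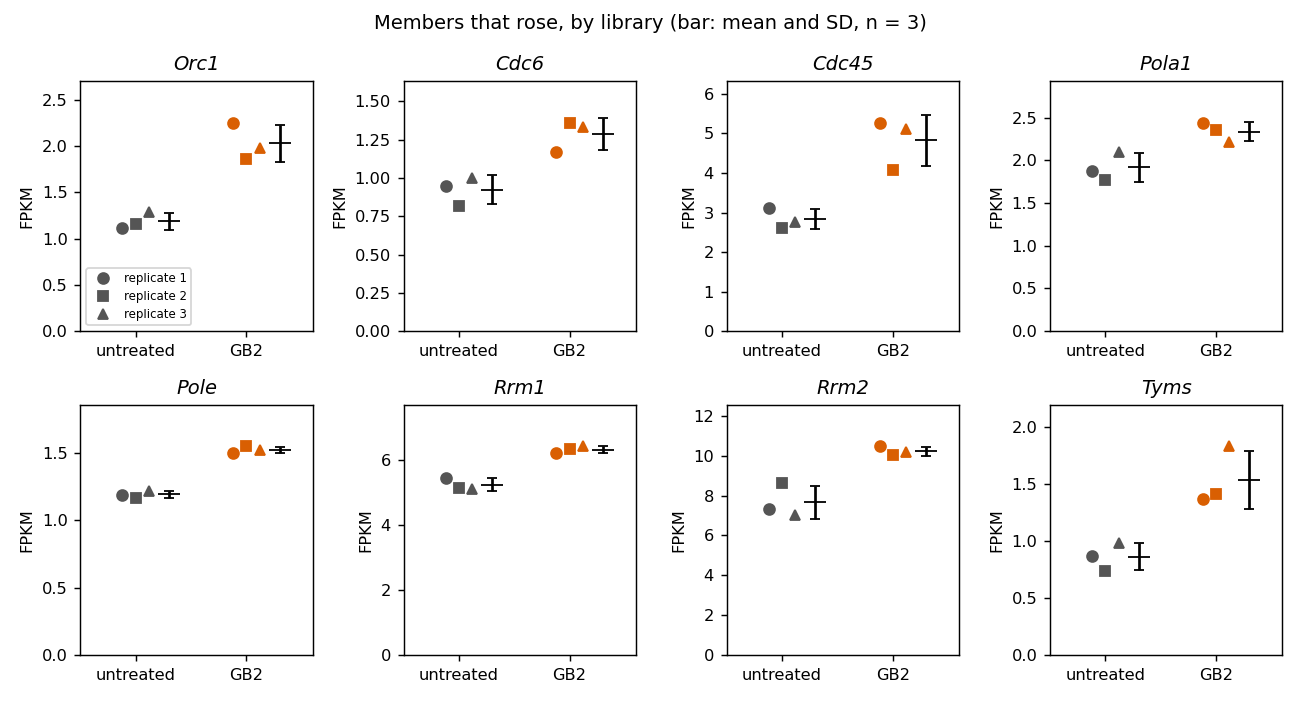
FPKM of the 8 members that rose, in each untreated (grey) and GB2-treated (orange) library, with mean and SD beside the points and axes from 0. In each gene the lowest treated library is above the highest untreated library, and the levels of Orc1, Cdc6, Pole and Tyms are near 1 FPKM untreated.

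The sliding clamp gene and 3 of the 5 clamp loader genes fell, and 0 of the 6 genes rose. Among all genes tested, 29.6% fell and 26.8% rose. Rfc2 (ENSMUSG00000023104, chromosome 5, 134581366 to 134601805, plus strand) encodes a small subunit of the loader. It was at 9.24, 8.46 and 9.15 FPKM untreated and 5.42, 5.06 and 5.09 FPKM after GB2. The fall was 1.70-fold with the groups far apart (log2 difference -0.77 ± 0.05 SE, edgeR FDR = 1.41e-05). Rfc4, a further small subunit, was at 6.33, 6.77 and 6.55 FPKM untreated and 6.32, 6.33 and 6.08 FPKM after GB2. Here the groups met at their edges (log2 difference -0.05, 95% interval -0.27 to 0.17). The ratio of Rfc2 to Rfc4 FPKM was 1.37 ± 0.108 untreated and 0.831 ± 0.0295 after GB2 (SD, n = 3 each). Rfc2 shares 15.1% of its exonic bases with the opposite-strand gene Lat2, and Rfc4 12.7% with the opposite-strand gene Eif4a2.

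Pcna, which encodes the ring that tethers polymerases to DNA, had the highest level of all members. It fell from 65.1 ± 1.64 to 48.7 ± 3.65 FPKM (SD, n = 3 each; log2 difference -0.40, edgeR FDR = 0.000705). The reference names pseudogenes of Pcna, Pcna-ps1 and Pcna-ps2, and how reads shared with them were counted is not given in the sources used here. Rfc3 fell by 0.52 and Rfc1, the large subunit gene, by 0.29 on the log2 scale (edgeR FDR = 0.00301 and 0.000505). Rfc5 had a log2 difference of -0.21 (edgeR FDR = 0.0923), which passed only when untreated replicate 2 was left out (0.0475) or with limma on log2(FPKM + 0.1) (0.0497).

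Among genes of single-strand binding and Okazaki fragment processing, 2 of 5 fell and 0 rose, beside 29.6% and 26.8% of all genes tested. Fen1 (ENSMUSG00000024742, chromosome 19, 10199132 to 10204169, minus strand) encodes the nuclease that trims the flaps between Okazaki fragments. It was at 12.35, 11.71 and 11.73 FPKM untreated and 6.88, 6.23 and 7.44 FPKM after GB2. All treated libraries were below all untreated ones, a 1.72-fold fall (log2 difference -0.78 ± 0.07 SE, edgeR FDR = 5.57e-05). Fen1 shares 78.8% of its exonic bases with the antisense gene model Gm10143 and is uncertain to that extent. Lig1, the ligase gene of the step that follows, was at 6.52, 7.03 and 6.95 FPKM untreated and 6.83, 6.27 and 6.70 FPKM after GB2. Its groups overlapped (log2 difference -0.03, 95% interval -0.16 to 0.10). The ratio of Fen1 to Lig1 FPKM went from 1.75 ± 0.126 to 1.04 ± 0.0639 (SD, n = 3 each).

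The RPA trimer coats exposed single strands. Rpa1, the large subunit gene, fell from 14.9 ± 0.530 to 11.6 ± 0.852 FPKM (SD, n = 3 each; log2 difference -0.34, edgeR FDR = 0.000657). Rpa2 and Rpa3 had log2 differences of -0.20 and -0.15 and did not pass (edgeR FDR = 0.132 and 0.373). Rpa2 was at 5.35 FPKM in GB2-treated replicate 1, inside the untreated range, and at 4.37 and 4.43 FPKM in replicates 2 and 3. It passed when GB2-treated replicate 1 was left out (log2 difference -0.33, edgeR FDR = 0.00925).

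Deoxynucleotide supply was the role in which 3 of 4 genes rose and 0 fell, beside 26.8% and 29.6% of all genes tested. Tyms (ENSMUSG00000025747, chromosome 5, 30058202 to 30073617, minus strand) encodes thymidylate synthase, which makes dTMP. It was at 0.87, 0.74 and 0.98 FPKM untreated and at 1.37, 1.41 and 1.83 FPKM after GB2. The groups were apart, with a 1.79-fold rise (log2 difference 0.84 ± 0.16 SE, edgeR FDR = 0.00314). The reference names a pseudogene, Tyms-ps, and the level of Tyms is low, so its value is uncertain to that extent. Rrm1 and Rrm2 encode the large and the small subunit of ribonucleotide reductase, which turns ribonucleotides into deoxyribonucleotides. Rrm2 went from 7.66 ± 0.839 to 10.2 ± 0.222 FPKM and Rrm1 from 5.25 ± 0.188 to 6.33 ± 0.10 FPKM (SD, n = 3 each; log2 differences 0.43 and 0.29, edgeR FDR = 0.00404 and 0.000822).

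Tk1 encodes the cytosolic thymidine kinase, which salvages thymidine. It was at 3.04, 2.78 and 2.38 FPKM untreated and 2.94, 2.69 and 3.37 FPKM after GB2. The groups overlapped and the log2 difference of 0.15 did not pass (95% interval -0.13 to 0.43). The summed level of the 4 genes was 16.5 ± 0.895 FPKM untreated and 21.1 ± 0.685 FPKM after GB2 (SD, n = 3 each). Rrm2 and Pcna, both S-phase genes in textbook accounts, moved in opposite directions, and the ratio of Rrm2 to Pcna FPKM was 0.116, 0.131 and 0.106 untreated and 0.199, 0.220 and 0.213 after GB2. Each of the 3 calls in this role was kept in all 15 alternatives tried.

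Of the remaining members, Chaf1a fell while Uhrf1 and E2f1 did not pass. Chaf1a encodes the large subunit of CAF-1, which places histones on new DNA. It was at 3.42, 3.37 and 3.15 FPKM untreated and 2.90, 2.57 and 2.56 FPKM after GB2. The groups did not overlap, with GB2-treated replicate 1 nearest to the untreated range (log2 difference -0.29 ± 0.07 SE, edgeR FDR = 0.0119). That call was lost without untreated replicate 1 or 2 (edgeR FDR = 0.0527 and 0.0524), without GB2-treated replicate 2 or 3 (0.0817 and 0.0902) and without these last 2 together (0.349). Chaf1a shares 52.5% of its exonic bases with the opposite-strand gene Ubxn6.

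E2f1, the gene of an activator of S-phase genes, was at 8.00, 8.34 and 9.01 FPKM untreated and 9.14, 7.19 and 9.04 FPKM after GB2. GB2-treated replicate 2 was the lowest and GB2-treated replicate 1 the highest of the 6 libraries, and the log2 difference was 0.02 (95% interval -0.20 to 0.23). Uhrf1, which helps to copy DNA methylation behind the fork, had a log2 difference of 0.13 (edgeR FDR = 0.0682). Uhrf1 passed with DESeq2 size factors (edgeR FDR = 0.0241) and on counts divided by 4 (0.0153).

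Further genes of the same processes were read from the same fit, 79 in all. Of these 26 rose (32.9%), 34 fell (43%) and 19 did not pass, where 26.8% of all genes tested rose and 29.6% fell. Past the 2-fold rule 4 were higher and 6 were lower, beside 13.4% and 7.73% of all genes tested. Their median log2 difference was -0.15. Among 38 further genes of the fork and of origins 13 rose (34.2%) and 15 fell (39.5%). The largest rises were in Recql4, Ticrr and Mtbp. Recql4, a helicase gene needed for origin firing, went from 1.06 ± 0.0651 to 3.53 ± 0.308 FPKM (SD, n = 3 each; log2 difference 1.74, edgeR FDR = 8.52e-06). Ticrr (treslin) and Mtbp, whose products work as partners in bringing CDC45 to the helicase, rose by log2 0.87 and 0.85 (edgeR FDR = 0.00101 and 2.91e-05). Cdc7 and Dbf4, the kinase and its activator that switch on MCM2-7, rose by log2 0.58 and 0.33 (edgeR FDR = 0.0152 and 0.00729). Cdc7 was lost in 5 of 15 alternatives, among them without untreated replicate 1 or 2 (0.0772 and 0.0695) or GB2-treated replicate 3 (0.0509). Donson and Topbp1, which also help to assemble the helicase, fell by 0.68 and 0.17 on the log2 scale (edgeR FDR = 0.00345 and 0.0288). Topbp1 was lost in 8 of 15 alternatives, among them without GB2-treated replicate 2 or 3 (0.151 and 0.087) and with DESeq2 size factors (0.0824).

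The largest falls in that list were in Chaf1b, Wdhd1 and Dna2. Chaf1b, the partner of Chaf1a in CAF-1, was at 4.49 ± 0.135 FPKM untreated and 1.96 ± 0.501 FPKM after GB2 (SD, n = 3 each), a 2.26-fold fall (log2 difference -1.18, edgeR FDR = 0.000552). Wdhd1 encodes the AND-1 adaptor that ties polymerase alpha to the helicase, and Dna2 a nuclease for long flaps. They fell by 0.78 and 0.73 on the log2 scale (edgeR FDR = 0.000949 and 0.000231).

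Other subunits of the members' complexes also moved in opposite directions. Of the remaining origin recognition genes, Orc3 and Orc4 rose by log2 0.57 each (edgeR FDR = 5.51e-05 and 0.000106). Orc2 fell by 0.27 on the log2 scale (edgeR FDR = 0.0125), a call lost without GB2-treated replicate 2 or 3 (0.0939 and 0.103), and Orc5 did not pass (0.13, edgeR FDR = 0.137), although without GB2-treated replicate 1 it did (0.0427). In polymerase delta, Pold3 had a log2 difference of -0.23 and Pold4 of 0.39, and in polymerase epsilon Pole3 had -0.58 and Pole4 0.37 (edgeR FDR = 0.00386, 0.00332, 0.000409 and 0.00055). Cdc7, Dbf4, Donson, Topbp1 and the Orc, Pold and Pole genes of this account were picked out after their values were seen.

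Among 29 further genes of nucleotide supply 9 rose (31.0%) and 13 fell (44.8%), beside 26.8% and 29.6% of all genes tested. The largest falls were in Umps, Gart and Dctd, and the largest rises in Mthfd2, Dck and Rrm2b. Umps, which encodes the enzyme that makes UMP, fell 3.46-fold, from 8.37, 7.93 and 8.63 FPKM untreated to 2.41, 2.47 and 2.23 FPKM (log2 difference -1.79, edgeR FDR = 1.78e-06). Gart, a trifunctional enzyme gene of purine synthesis, fell 2.62-fold, from 15.75, 16.04 and 14.79 to 5.44, 5.92 and 6.18 FPKM (log2 difference -1.39, edgeR FDR = 1.31e-06). The treated libraries were far below the untreated ones in both genes. Dctd, the deaminase gene that turns dCMP into dUMP, fell 2.12-fold (log2 difference -1.08, edgeR FDR = 0.00106).

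Neighbouring steps, picked out after their values were seen, were as follows. In purine synthesis Ppat, the gene of the first committed step, had a log2 difference of -1.0, Atic of -0.64 and Paics of -0.50 (edgeR FDR = 1.28e-05, 3.76e-05 and 2.31e-05). Impdh1 and Impdh2, at the branch to guanine nucleotides, rose by log2 0.67 and 0.46, while Gmps, the next step, fell by 0.39 on the log2 scale (edgeR FDR = 5.39e-05, 0.000628 and 0.00741). In pyrimidine synthesis Cad, which encodes the first 3 activities, was at 7.5 ± 0.117 FPKM untreated and 7.42 ± 0.256 FPKM after GB2 (SD, n = 3 each; 95% interval of the log2 difference -0.10 to 0.11). Dhodh, Ctps and Ctps2, further along, fell by 0.74, 0.58 and 0.93 on the log2 scale (edgeR FDR = 0.00268, 0.000254 and 2.83e-06).

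Mthfd2, a mitochondrial folate enzyme, rose 2.36-fold, from 34.83, 36.10 and 32.65 FPKM to 87.16, 75.25 and 79.06 FPKM (log2 difference 1.24, edgeR FDR = 4.31e-06). Dck, the kinase gene of deoxycytidine salvage, rose by log2 0.79, and Rrm2b, the p53-induced small subunit of ribonucleotide reductase, by 0.74 (edgeR FDR = 1.42e-05 and 0.000126). Shmt2, which loads a serine carbon onto folate in mitochondria, rose by log2 0.58 (edgeR FDR = 1.51e-05). Dut, which makes dUMP for TYMS from dUTP, did not pass (0.34, edgeR FDR = 0.0882), although without GB2-treated replicate 1 it did (0.0377). Shmt2 and Dut were picked out after their values were seen.

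**Figure D5:**
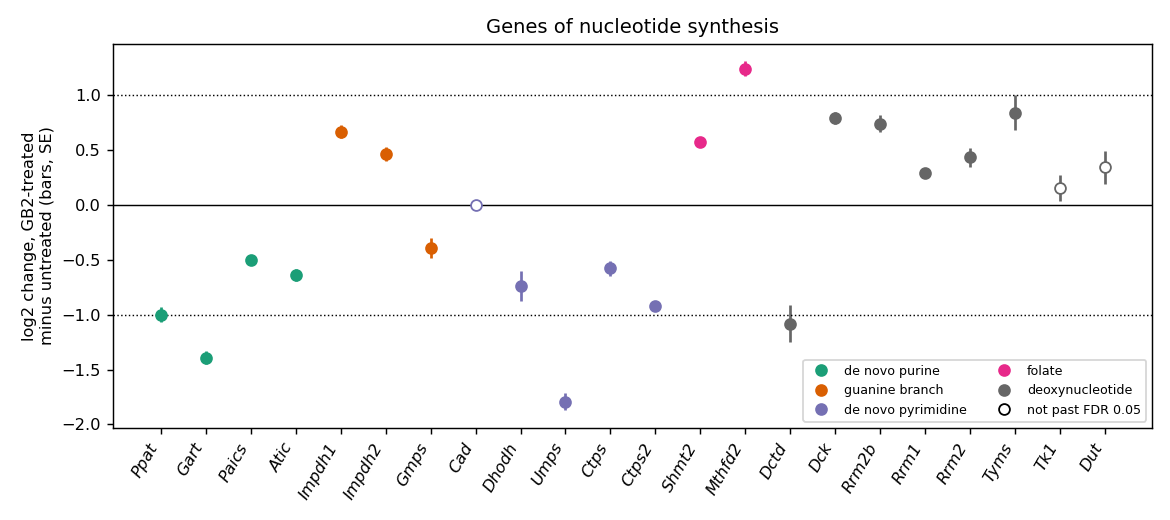
Log2 difference (GB2-treated minus untreated, edgeR, bars of 1 standard error) of nucleotide synthesis genes, coloured by branch, with dotted lines at 2-fold and open circles for genes not past an FDR of 0.05. The de novo purine genes shown and most pyrimidine genes shown lie below 0, from -0.50 (Paics) to -1.79 (Umps) with Cad at 0, and the folate genes shown and all deoxynucleotide genes shown but Dctd lie above 0.

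The E2F and RB family held 12 further genes, of which 4 rose (33.3%) and 6 fell (50%), beside 26.8% and 29.6% of all genes tested. E2f7, an atypical repressor that E2F1 itself induces, went from 0.167 ± 0.0322 to 0.480 ± 0.121 FPKM, and E2f2, an activator, from 2.27 ± 0.0651 to 4.61 ± 0.116 FPKM (SD, n = 3 each; log2 differences 1.51 and 1.04, edgeR FDR = 0.00168 and 1.05e-05). Both groups of E2f7 were below 1 FPKM. Rb1, the retinoblastoma repressor gene, rose by log2 0.62, and its relative Rbl2 (p130) fell by 0.67 on the log2 scale (edgeR FDR = 9.6e-05 and 9.42e-05). Tfdp2, a DNA-binding partner of E2F proteins, fell 2.71-fold and E2f6, a repressor, 1.77-fold (edgeR FDR = 4.85e-05 and 2.43e-05). E2f1, the member of the family followed above, stood at 8.45 ± 0.514 FPKM untreated and 8.46 ± 1.10 FPKM after GB2.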

How the data were processed

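According to the submitters' processing notes, the build was mm10 and the tools included StringTie 2.1.6, HISAT2 2.2.1 and cutadapt 1.9, beside edgeR and DESeq2. For the role of each tool, the annotation and how strand was used in counting, the answer is not given in the sources used here. Estimated counts per gene were deposited by the authors as whole numbers, so no rounding was needed. The authors also gave FPKM, which scales reads by transcript length and library total. Low counts favoured multiples of 4: of the genes in untreated replicate 1, 952 had 4 counts but 397 had 3 and 252 had 5. All library pairs differed beyond sampling noise.

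The test on estimated counts was the two-sided quasi-likelihood F test of edgeR 4.0.16, run in R 4.3.3 (TMM scaling, default expression filter, no covariate, Benjamini-Hochberg over 17124 genes). Intervals are at 95%. The script was tested on simulated counts. FPKM gave the levels. Alternatives were DESeq2 size factors, no count filter, the DESeq2 1.42.0 Wald test, limma 3.58.1 on log2(FPKM + 1) or log2(FPKM + 0.1) for genes of at least 1 FPKM on average, the former also with no FPKM filter, counts divided by 4, a replicate block, and leaving out each library, or GB2-treated replicates 2 and 3 together.

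Values per library are given for the largest and the smallest absolute change in each role and for MCM2-7, and further lists give up to 3 rises and 3 falls, beside genes said to be picked later. Library values of Prim1 and Rpa2 and all ratios between genes were also picked after they were seen and have no test. Genes of the further lists that are not named are in the counts only. Members, lists and tests were chosen with earlier results of these data known. All 43 members are in GENCODE M21, 36 with identical coordinates. Melanocyte, fibroblast and lymphocyte marker sums were at most 0.29, 3.18 and 1.75 FPKM in any library, with 4 of 6 melanocyte and 5 of 6 lymphocyte genes analysed here.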

Additional observations from a re-analysis of the deposited data

How the results depend on the processing

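Of the 24 members called, 17 kept their call in all 15 alternatives, and 0 members passed the 2-fold rule in any. Leaving out 1 library gave 6 to 8 members higher and 13 to 17 lower. With the replicate block 7 members rose and 15 fell, with 1 licensing gene higher. The correlations of same-numbered libraries were 0.021, 0.05 and 0.014, each the highest for both libraries concerned but too low to pair them. With limma and no FPKM filter 5 members were higher, 1 of them in licensing and 0 among polymerases. With log2(FPKM + 0.1), and without GB2-treated replicates 2 and 3 together, licensing also had 1 higher. Without those 2 libraries helicase activation had 1 lower and the chromatin genes 0 lower. On counts divided by 4, helicase activation had 2 higher and the chromatin genes 1, as they had with DESeq2 size factors. Leaving out 1 library gave 1 to 2 higher in licensing, 1 to 2 higher among polymerases and 0 to 1 lower among chromatin genes.

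Rpa2 (main log2 difference -0.20) and some genes with smaller differences changed sign. Without GB2-treated replicates 2 and 3 the log2 differences were 0.037 (Mcm5), 0.002 (Mcm7), 0.132 (Gins1), 0.121 (Pold1), 0.034 (Rfc4), 0.045 (Rpa2) and 0.082 (Lig1). Leaving out 1 library gave ranges of -0.211 to 0.07 (Gins1), -0.034 to 0.106 (Prim2), -0.108 to 0.058 (Pold1), -0.091 to 0.01 (Rfc4), -0.086 to 0.019 (Lig1), -0.071 to 0.138 (E2f1) and -0.032 to 0.041 (Cad). DESeq2 size factors gave Pold1 0.033 and Lig1 0.011, the DESeq2 Wald test gave Pold1 0.008, and counts divided by 4 gave Pold1 0.051, Rfc4 0.007 and Lig1 0.028. With no count filter E2f1 was -0.014 and Cad -0.027. Under limma with log2(FPKM + 1), log2(FPKM + 0.1) and no FPKM filter, E2f1 was -0.004, -0.006 and -0.004 and Cad -0.013, -0.015 and -0.013.

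Over all genes, limma gave 3024 higher on log2(FPKM + 1) and 3054 on log2(FPKM + 0.1). By the 2-fold rule it gave 603, 860 and, with no FPKM filter, 598 higher, and 611 and 614 lower for log2(FPKM + 1) with and without the filter, where 11398 genes passed the FPKM filter. Leaving out 1 library gave 1486 to 3728 higher by that rule, and leaving out GB2-treated replicates 2 and 3 gave 1432. The median log2 difference of all genes ran from -0.12 to 0.18 over the alternatives, and the cause of these shifts was not tested.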
